A study of Rattus norvegicus with 56 samples.

Results

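Segments of the rat kidney tubule, cortical collecting duct (CCD) and cortical thick ascending limb (cTAL), were compared in animals whose ureter had been exposed but not tied. Every library labelled sham and dissected from either segment was used, which gave 24 of the 56 samples of the series. Of these, 16 were CCD and 8 were cTAL. The study as a whole asked how ligation of a ureter leads to early loss of the water channel aquaporin-2 from the collecting duct, and its ligated animals and 8 whole-kidney samples were not used here. The rats were male Sprague-Dawley animals of 120 to 160 g. In the sham group the left ureter was freed through a cut in the flank and was not ligated, and tubules were sampled 30 min or 3 h later. Tubule segments were microdissected, their RNA was copied with a SMARTer V4 kit and amplified for 15 PCR cycles, and libraries were made with Nextera XT.

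Each time had its own table of TPM values, levels scaled for transcript length and to a fixed total per library. A table held 12 sham libraries. Numbers 1 to 4 each had 2 CCD libraries and 1 cTAL library. The mean of both CCD libraries of a number was taken on the log2(TPM + 1) scale, and the cTAL library of the same number was subtracted. A comparison therefore rests on 4 differences at each time, and the 3 h table served as a second data set for the 30 min table. Levels below are TPM, given per replicate in the order of numbers 1 to 4 or as mean ± SD over the 4 replicates of a segment, and the TPM of a CCD replicate is the mean of its 2 libraries. Differences are CCD minus cTAL on log2(TPM + 1), so a positive value means higher in CCD, and this scale understates differences of genes near or under 1 TPM. A gene was called when limma's Benjamini-Hochberg adjusted p over all genes tested was under 0.05. The labels do not say whether libraries of a number share an animal, so p-values measure the spread between numbered samples. TPM hold no record of read numbers, so depth is unknown.

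The collecting duct is built of principal cells, which take up water and sodium under vasopressin and aldosterone, and of intercalated cells, which move acid, base and chloride. Type A intercalated cells secrete acid through a vacuolar proton pump, and type B cells secrete bicarbonate through the exchanger pendrin. The thick ascending limb takes up salt through the cotransporter Slc12a1, is nearly impermeable to water, passes calcium and magnesium between its cells, and secretes uromodulin. In bulk RNA of a segment, a difference in the number of cells of a type and a difference in RNA per cell cannot be told apart.

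Aqp2 and Umod, a marker of each segment, followed the labels in all 24 libraries. Not every listed marker did so. Of 7 type A intercalated cell markers tested at 30 min, 6 were called higher in CCD and 1 in cTAL. Aqp2, the vasopressin-regulated water channel of the principal cell, stood at 3494, 5556, 5196 and 5302 TPM in CCD against 0.110, 0.170, 1.88 and 0.550 TPM in cTAL at 30 min. At 3 h the Aqp2 levels were 9991, 11318, 9826 and 9681 TPM in CCD against 361, 0.340, 4.34 and 0.410 TPM in cTAL. Replicate 1 of cTAL at 3 h held far more Aqp2 than the other cTAL libraries, yet every CCD replicate lay above it. Umod, the gene of uromodulin, was at 433, 39.3, 24.0 and 18.5 TPM in CCD against 56901, 47797, 37664 and 66397 TPM in cTAL at 30 min. Its 3 h levels were 3676, 175, 4108 and 66.7 TPM in CCD against 33550, 38294, 34951 and 58425 TPM in cTAL. The segments did not overlap for either gene at either time. The differences were 11.60 (SE 0.21, adjusted p = 2.80e-07) and 10.35 (SE 1.299, adjusted p = 0.00157) for Aqp2, and -10.04 (SE 0.66, adjusted p = 3.53e-05) and -6.94 (SE 0.99, adjusted p = 0.00261) for Umod.

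**Figure D1:**
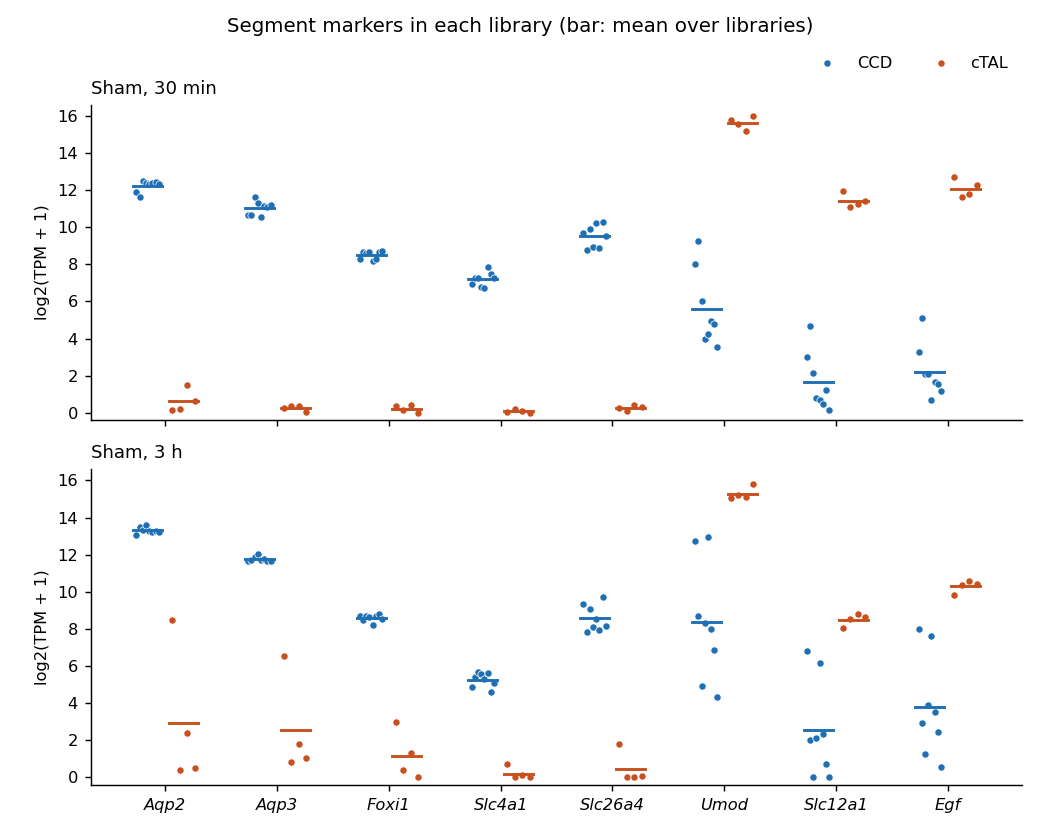
Levels of 8 marker genes on a log2(TPM + 1) axis in each sham library of CCD (8 per time) and cTAL (4 per time), at 30 min and 3 h; each point is a library and each bar is the mean over the libraries of a segment. Aqp2, Aqp3, Foxi1, Slc4a1 and Slc26a4 sit higher in CCD, and Umod, Slc12a1 and Egf sit higher in cTAL, at both times.

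Some libraries stood apart from the rest. Both CCD libraries of replicate 1 at 30 min had summed connecting tubule markers of 4186 and 6296 TPM, whereas the other 6 CCD libraries ranged from 183 to 1190 TPM. At 3 h the first CCD libraries of replicates 1 and 3 held 6941 and 7957 TPM of Umod. Replicate 1 of cTAL at 3 h held 361 TPM of Aqp2. Correlations of log2(TPM + 1) between libraries of the same segment had a median of 0.959 (CCD of different numbers) and 0.955 (cTAL) at 30 min, and of 0.834 between segments. The medians at 3 h were 0.956, 0.953 and 0.865.

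Of 32883 genes in a table, 11569 passed the filter of 1 TPM or more in at least 4 of the 8 replicates at 30 min, and 10435 did at 3 h. At 30 min, 4835 genes (41.8%) were higher in CCD and 1543 (13.3%) were lower. At 3 h, 2914 genes (27.9%) were higher and 1088 (10.4%) were lower. The 4 CCD and 4 cTAL replicates did not overlap for 5382 genes (46.5%) at 30 min and 4060 genes (38.9%) at 3 h. The excess of CCD calls moved with the scaling. The median difference of all genes tested was 0.29 at 30 min and 0.30 at 3 h, and median-of-ratios rescaling brought it to -0.0069 and 0.047. With that rescaling 3056 genes were higher and 2761 lower in CCD at 30 min, and 1651 and 1672 at 3 h. Without replicate 1 at 30 min 4762 genes were higher and 1343 lower. Without the Umod-rich CCD libraries and number 1 at 3 h, 1720 were higher and 931 lower. After quantile normalization the counts were 2852 and 3155, and 1533 and 1715. Rescaling without mitochondrial genes and Umod kept an excess in CCD, with 3426 higher and 2395 lower at 30 min, and 2151 and 1300 at 3 h. Single genes are therefore read against a median near 0.3, and small positive differences carry little weight by themselves. Of the list members named below, calls of Slc2a1, Cldn3, Atp6v1g1 and Aldoa at 30 min and of Atf3, Atp1b1, Atp1b3, Bsnd, Crem, Hk1, Hoxd9, Prss8 and Thra at 3 h were lost under at least 1 other scaling.

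Fewer and larger contributors filled the cTAL libraries. The mitochondrially encoded genes took 15.7 ± 2.15% of all TPM in CCD and 24.0 ± 2.45% in cTAL at 30 min. At 3 h they took 6.04 ± 0.912% and 10.9 ± 1.56%. The share was lower in CCD in 4 of 4 numbers at each time, with an exact sign-flip p of 0.125, the smallest that 4 differences allow. Without the pairing, the two-sided exact permutation p was 0.0286 at each time, the smallest for 4 against 4. The number of genes at 1 TPM or more averaged 11502 in CCD and 11007 in cTAL at 30 min, and 10291 and 9924 at 3 h, with CCD higher in 4 of 4 numbers at each time. For that number the unpaired exact permutation p was 0.0286 at 30 min and 0.0857 at 3 h, where the difference was 367.2 genes with both CCD libraries, 555.2 with the first alone and 179.2 with the second alone. Their part in the calls was not tested beyond the rescalings above.

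The second table repeated most of the first. Among 10178 genes tested at both times, 3383 were called the same way at both, 2504 higher in CCD (24.6%) and 879 higher in cTAL (8.64%). Of the genes called at 30 min, 59.1% were called in the same direction at 3 h and 95.6% had the same sign. Of the genes called at 3 h, 86.6% were called the same way at 30 min. Opposite calls were made for 5 genes. Across the 10178 genes the differences of the 2 times had a Pearson r of 0.914 and a Spearman rho of 0.800, given as a description because genes are not independent replicates. A stricter group was called at both times, did not overlap at either and differed at least 4-fold at each. It held 354 genes higher in CCD (3.48%) and 182 higher in cTAL (1.79%).

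**Figure D2:**
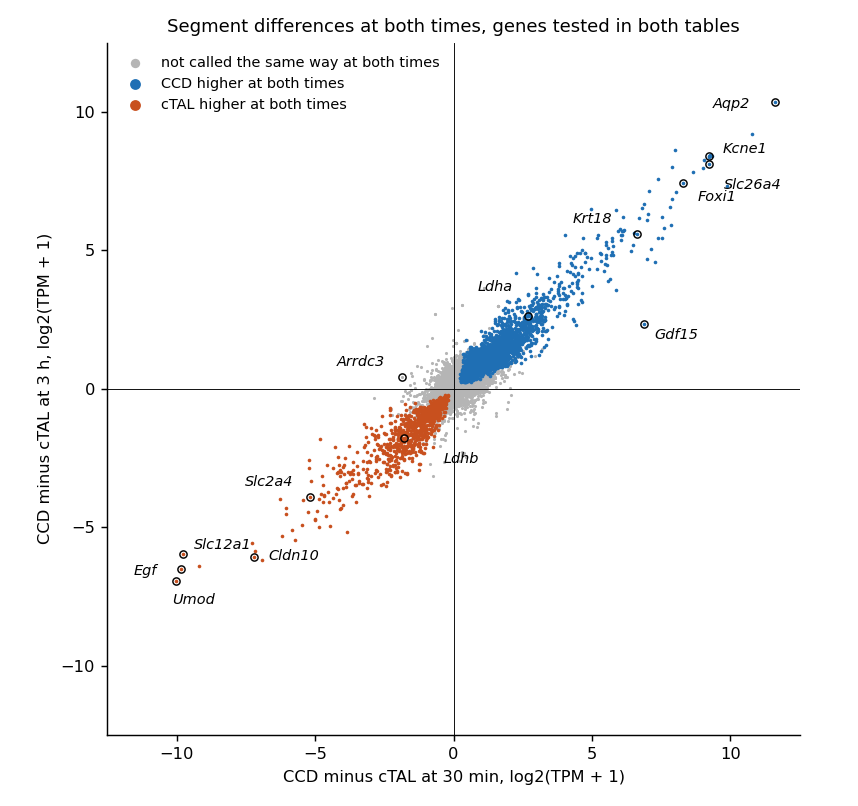
CCD minus cTAL difference on the log2(TPM + 1) scale at 30 min (horizontal axis) and 3 h (vertical axis) for the 10178 genes tested at both times; blue points are the 2504 genes called higher in CCD and orange points the 879 called higher in cTAL at both times, grey points the rest, and circles mark named genes. The named CCD genes lie in the upper right and the named cTAL genes in the lower left, and Arrdc3 lies below 0 at 30 min and above 0 at 3 h.

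The genes that led the CCD side belonged to water and sodium uptake, to intercalated cells and to several smaller groups. Ranked by the mean difference of both times, the first 20 were Aqp2, Aqp3, Atp6v1g3, Muc20, Kcne1, Fxyd4, Slc26a4, Rhcg, Scnn1g, Hmx2, Hepacam2, Guca2a, Foxi1, Rhbg, Adipoq, Slc4a9, A4galt, Tldc2, Grem1 and Ptges. Muc20, a membrane mucin, averaged 858 ± 87.7 TPM in CCD versus 0.410 ± 0.266 in cTAL at 30 min. Guca2a, which encodes the peptide guanylin, averaged 310 ± 63.1 and 0.282 ± 0.164 TPM at 30 min, with differences of 7.90 and 8.01 at the 2 times. Adipoq, the hormone adiponectin, was also high in CCD, at 318 ± 123 TPM versus 0.877 ± 0.682 TPM in cTAL at 30 min, and with differences of 7.39 and 7.56. A4galt, the enzyme that makes the glycolipid Gb3, differed by 7.83 and 6.56. Hepacam2 and Tldc2 differed by 8.66 and 7.06 at 30 min and by 7.82 and 7.16 at 3 h.

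On the cTAL side the first 20 were Umod, Egf, Slc12a1, Cldn10, Fxyd6, Tmem207, Wfdc1, Ppp1r1a, Plau, Cxcl12, Sphk1, Spon1, Lipg, Caln1, Gp2, Lrrc66, Entpd2, Defb28, Cdhr5 and Mlana. Plau, the protease urokinase, was among the most abundant of them, averaging 2710.5 ± 725 TPM in cTAL versus 49.8 ± 20.4 in CCD at 30 min, with differences of -5.84 and -5.12. Gp2, the closest relative of uromodulin, averaged 45.1 ± 13.4 TPM in cTAL and 0.380 ± 0.121 TPM in CCD at 30 min. Ppp1r1a, an inhibitor of protein phosphatase 1 that acts when phosphorylated by protein kinase A, differed by -5.74 and -5.45. The chemokine Cxcl12 differed by -6.04 and -4.51, and the sphingosine kinase Sphk1 by -5.46 and -4.91. Entpd2, an enzyme that splits extracellular ATP, averaged 259 TPM in cTAL and 7.02 TPM in CCD at 30 min.

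Regulatory sequence upstream of 19 genes that mark the segments, or belong to a pair that split between them, was searched for short motifs, and 14 of the 19 held none of them. The sequence of 4 of the 5 genes with a match is shown, so these 4 were picked for holding a motif. Each run is the 250 bases before the annotated start, 5′ to 3′ on the gene's strand, from RefSeq on the rat build GRCr8, which differs from the build of the expression tables. Aqp2 is at chr7:132590036-132590285, Avpr2 at chrX:156784889-156785138, Cldn10 at chr15:102269608-102269857 and Ldha at chr1:106507842-106508091, all on the plus strand. Capitals mark the motif found by search of both strands, which was a GATA motif (AGATAA, here on the minus strand) for Aqp2, a forkhead motif (TGTTTAC) for Avpr2 and, on the minus strand, for Cldn10, and a cAMP response element (TGACGTCA) for Ldha. The motifs begin 217, 131, 164 and 51 bases before the start.
Aqp2: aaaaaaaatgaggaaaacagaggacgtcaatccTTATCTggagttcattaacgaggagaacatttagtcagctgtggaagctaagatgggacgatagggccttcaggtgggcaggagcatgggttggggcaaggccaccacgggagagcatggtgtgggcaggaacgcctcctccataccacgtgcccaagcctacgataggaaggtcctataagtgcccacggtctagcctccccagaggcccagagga
Avpr2: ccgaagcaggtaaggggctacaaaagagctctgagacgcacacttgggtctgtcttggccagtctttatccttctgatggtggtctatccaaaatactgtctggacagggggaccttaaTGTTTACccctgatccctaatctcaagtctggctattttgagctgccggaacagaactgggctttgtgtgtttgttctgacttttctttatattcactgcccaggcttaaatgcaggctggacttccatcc
Cldn10: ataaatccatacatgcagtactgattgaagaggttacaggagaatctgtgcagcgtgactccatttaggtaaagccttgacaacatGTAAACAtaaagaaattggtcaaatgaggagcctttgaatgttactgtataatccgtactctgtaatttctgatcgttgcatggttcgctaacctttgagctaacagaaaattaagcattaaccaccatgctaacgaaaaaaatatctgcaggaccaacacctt
Ldha: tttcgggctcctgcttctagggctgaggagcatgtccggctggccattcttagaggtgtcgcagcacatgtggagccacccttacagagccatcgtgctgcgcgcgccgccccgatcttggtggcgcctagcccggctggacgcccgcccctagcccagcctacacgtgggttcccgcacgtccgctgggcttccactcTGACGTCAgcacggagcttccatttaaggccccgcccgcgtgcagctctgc
Such a match is a description, not a binding site or a cause. Promoters were found for 256 of the 347 genes named in the 4-fold CCD group and for 128 of the 174 in the 4-fold cTAL group, and all shares refer to windows of the same length on both strands. The GATA motif was in 5.86% of the CCD group, 4.69% of the cTAL group and 5.38% of 8289 promoters of genes tested. The forkhead motif was in 2.73%, 6.25% and 2.03%. The cAMP response element was in 3.12%, 2.34% and 2.91%. A posterior HOX motif (TTTATNG) was in 4.69%, 8.59% and 6.36%, and the oestrogen-related receptor motif (TCAAGGTCA) in 0%, 0% and 0.181%. Among all 27457 promoters of the reference table the shares were 10.05% for GATA, 3.25% for forkhead, 1.697% for the cAMP response element, 10.1% for HOX and 0.368% for the oestrogen-related receptor.

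Water and sodium transport genes of the principal cell were higher in CCD at both times. Of 14 tested members, 12 were called higher in CCD and 1 higher in cTAL at 30 min, and 13 and 0 at 3 h. Over all genes tested the shares were 41.8% higher in CCD and 13.3% higher in cTAL at 30 min, and 27.9% and 10.4% at 3 h, and the counts of every list are read against these. The list had medians of 4.16 and 3.57. Aqp3, a water channel of the basolateral membrane, was at 1637, 2836, 1883 and 2294 TPM in CCD against 0.180, 0.280, 0.290 and 0.0400 TPM in cTAL at 30 min. Its 3 h values were 3319.6, 4003, 3406 and 3216 TPM in CCD against 92.9, 0.780, 2.45 and 1.10 TPM in cTAL. The segments did not overlap, and replicate 1 of cTAL at 3 h was again the highest of its group. The other basolateral water channel, Aqp4, averaged 62.5 ± 16.3 TPM in CCD versus 0.350 ± 0.201 in cTAL at 30 min, and 24.9 ± 7.04 and 0.150 ± 0.250 TPM at 3 h. Avpr2, the vasopressin receptor that raises cAMP, was at 436, 567, 449 and 516 TPM in CCD against 47.2, 41.8, 39.5 and 49.8 TPM in cTAL at 30 min. Its 3 h values were 654, 794, 754 and 860.2 TPM in CCD against 63.5, 66.5, 67.3 and 68.5 TPM in cTAL, again without overlap. The difference was 3.43 (SE 0.11, adjusted p = 1.54e-06) and 3.498 (SE 0.087, adjusted p = 1.97e-05), so the receptor was measurable in cTAL where Aqp2 was nearly absent at 30 min.

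The 3 subunits of the epithelial sodium channel differed in how far they separated the segments. Scnn1g, the gamma subunit, was at 386, 638, 614 and 675 TPM in CCD against 0.120, 0.150, 0.1 and 0.0400 TPM in cTAL at 30 min. Scnn1b, the beta subunit, was at 408, 557, 550.1 and 615 TPM in CCD against 62.4, 29.9, 51.4 and 1.73 TPM in cTAL. Neither overlapped between the segments at 30 min, but Scnn1b was well above 0 in cTAL. At 3 h Scnn1g was at 415, 533, 493 and 559.5 TPM in CCD against 6.78, 0, 0.870 and 0 TPM in cTAL and Scnn1b was at 353, 374, 397 and 418 TPM in CCD against 32.5, 17.8, 44.0 and 29.5 TPM in cTAL. The differences were 8.99 (SE 0.17, adjusted p = 3.23e-07) and 7.99 (SE 0.55, adjusted p = 1.85e-04) for Scnn1g, 4.51 (SE 0.75, adjusted p = 0.00206) and 3.65 (SE 0.20, adjusted p = 9.27e-05) for Scnn1b, and 2.35 and 1.57 for the alpha subunit Scnn1a. Hsd11b2, the enzyme that inactivates glucocorticoid and so keeps the mineralocorticoid receptor for aldosterone, was at 702, 864, 1028 and 792 TPM in CCD against 2.28, 1.25, 3.41 and 4.20 TPM in cTAL at 30 min. Its 3 h values were 363, 387, 230.1 and 296 TPM in CCD against 9.18, 5.81, 3.06 and 2.21 TPM in cTAL. The segments did not overlap, with differences of 7.61 (SE 0.22, adjusted p = 1.30e-06) and 5.79 (SE 0.23, adjusted p = 4.49e-05). The receptor itself, Nr3c2, was nearer to equal, with 1.202 and 1.29, and the aldosterone-induced kinase Sgk1 differed by 3.80 and 2.98.

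Kcnj1, the potassium channel ROMK, was the member called the other way. Its levels were 1087, 858, 782 and 1255 TPM in CCD against 1617, 1111, 1080.2 and 1244 TPM in cTAL at 30 min. At 3 h they were 737, 619, 804 and 444 TPM in CCD against 699, 729, 887 and 739 TPM in cTAL, and the segments overlapped at both times. The difference was -0.37 (SE 0.11, adjusted p = 0.0232) at 30 min and -0.27 (SE 0.13, adjusted p = 0.142) at 3 h, where it was not called. The 30 min call was lost without pairing by number (adjusted p = 0.119) and without replicate 1, 2 or 3 (adjusted p of 0.0606 to 0.0924). Prss8, the protease prostasin that activates the sodium channel, averaged 115 ± 18.8 and 94.5 ± 9.72 TPM at 30 min and was called at 3 h alone, with 0.27 and 0.37. At 3 h, without the CCD libraries rich in Umod and the number whose cTAL library was rich in Aqp2, the difference was 12.20 for Aqp2, 3.55 for Avpr2 and 3.85 for Scnn1b, all still called, in an alternative chosen after the data were seen.

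Intercalated cell genes showed the same pattern for both cell types. Of 14 tested members of the type A transport list, 12 were higher in CCD and 2 in cTAL at 30 min, and 12 and 0 at 3 h, with medians of 6.03 and 4.27. For type B the counts were 5 and 0 of 6, and 4 and 0 of 5, with medians of 7.36 and 6.87. The type A list also holds Slc4a9, which is counted for type B too, and genes of both types such as Rhbg and Rhcg. Its counts are therefore not those of type A cells alone. Slc26a4, the gene of pendrin, was at 629, 729.9, 831 and 996 TPM in CCD against 0.220, 0.0800, 0.360 and 0.240 TPM in cTAL at 30 min, then at 443, 404, 309 and 559 TPM in CCD against 2.53, 0, 0 and 0.0700 TPM in cTAL at 3 h. Slc4a1, the chloride and bicarbonate exchanger of the type A basolateral membrane, was at 138, 129.6, 169.9 and 165 TPM in CCD against 0.0200, 0.150, 0.0700 and 0 TPM in cTAL at 30 min. Its 3 h levels were 35.3, 48.4, 43.0 and 27.8 TPM in CCD against 0.670, 0, 0.0800 and 0 TPM in cTAL. Foxi1, the transcription factor that specifies intercalated cells, was at 361, 402, 301 and 415 TPM in CCD against 0.290, 0.120, 0.320 and 0 TPM in cTAL at 30 min, then at 389, 406, 351 and 406 TPM in CCD against 6.88, 0.310, 1.54 and 0 TPM in cTAL at 3 h. None of the 3 genes overlapped between segments. Their differences were 9.24 (SE 0.14, adjusted p = 1.80e-07) and 8.11 (SE 0.34, adjusted p = 4.61e-05) for Slc26a4, 7.12 (SE 0.15, adjusted p = 3.91e-07) and 5.05 (SE 0.26, adjusted p = 8.17e-05) for Slc4a1, and 8.29 (SE 0.17, adjusted p = 3.91e-07) and 7.42 (SE 0.48, adjusted p = 1.64e-04) for Foxi1.

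The ammonia transporters Rhcg and Rhbg averaged 1292 ± 133 and 1479 ± 80.8 TPM in CCD, and 0.443 ± 0.670 and 5.22 ± 3.06 TPM in cTAL, at 30 min. Type B genes Slc4a9, a basolateral anion exchanger, and Insrr, a receptor that responds to alkaline fluid, differed by 7.90 and 6.82 at 30 min. At 3 h Insrr was listed at 0 in all 4 cTAL libraries and averaged 98.7 ± 28.4 TPM in CCD. Kit, a receptor tyrosine kinase, and Aqp6, a channel of intracellular vesicles, averaged 56.4 ± 11.9 and 164 ± 25.1 TPM in CCD at 30 min, and both were called at both times. Other members went the opposite way at 30 min, namely Slc26a7, a chloride exchanger, at 6.92 ± 2.12 TPM in CCD versus 21.8 ± 5.44 TPM in cTAL, and Atp12a, a proton and potassium pump, at 3.12 ± 2.91 and 16.9 ± 20.2 TPM. Neither was called at 3 h, with -0.12 and -0.28.

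The vacuolar proton pump, which acidifies the lumen in intercalated cells and vesicles in all cells, was higher in CCD for most of its subunits. Of 22 tested, 18 were higher in CCD and 1 in cTAL at 30 min, and 16 and 2 at 3 h, with medians of 1.55 and 1.61. Atp6v1b1, the B subunit of intercalated cells, was at 350, 229.5, 333 and 456 TPM in CCD against 93.4, 56.1, 71.6 and 87.7 TPM in cTAL at 30 min. At 3 h it was at 431, 533, 418 and 418 TPM in CCD against 82.8, 142, 109.8 and 102 TPM in cTAL. Segments did not overlap, and the cTAL level was not near 0, with differences of 2.08 (SE 0.11, adjusted p = 1.13e-05) and 2.04 (SE 0.11, adjusted p = 8.17e-05). Atp6v1g3 and Atp6v1c2, 2 other subunit forms of intercalated cells, differed by 9.33 and 6.41 at 30 min and by 8.42 and 4.99 at 3 h. Their widely expressed relatives Atp6v1g1 and Atp6v1c1 differed by 0.27 and 0.15, of which Atp6v1g1 alone was called, and by 0.14 and 0.21 at 3 h, neither called. Subunits with no kidney-specific form were also higher in CCD, such as Atp6v0c with 2.97 and 2.29 and the accessory protein Atp6ap2 with 2.20 and 2.01. Atp6v1g2 was higher in cTAL at both times, by -0.73 and -0.82.

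Thick limb transport genes were higher in cTAL, but part of the list was shared. Of 24 tested members, 15 were higher in cTAL and 1 in CCD at 30 min, and 13 and 2 of 23 at 3 h, with medians of -1.36 and -1.51. Slc12a1, the sodium, potassium and chloride cotransporter, was at 15.9, 2.08, 0.5 and 0.740 TPM in CCD against 3982, 2187, 2471 and 2686 TPM in cTAL at 30 min, then at 57.7, 1.69, 37.6 and 0.335 TPM in CCD against 262, 366, 450.1 and 402 TPM in cTAL at 3 h. Egf, the precursor of epidermal growth factor, was at 20.9, 3.34, 1.42 and 1.61 TPM in CCD against 6598, 3110.3, 3487 and 4866 TPM in cTAL at 30 min, then at 130.4, 7.59, 103 and 2.42 TPM in CCD against 921, 1309.9, 1524 and 1374 TPM in cTAL at 3 h. Neither gene overlapped between segments, and the CCD libraries rich in Umod at 3 h belong to the replicates with the highest Slc12a1 in CCD. The differences were -9.78 (SE 0.41, adjusted p = 4.89e-06) and -5.97 (SE 0.76, adjusted p = 0.0017) for Slc12a1, and -9.86 (SE 0.36, adjusted p = 2.81e-06) and -6.53 (SE 0.74, adjusted p = 0.00109) for Egf. Without the Umod-rich CCD libraries and the Aqp2-rich number at 3 h they were -7.40 and -7.92, and -8.63 for Umod.

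Casr, the calcium-sensing receptor, was at 20.8, 16.2, 29.9 and 26.2 TPM in CCD against 583, 304, 389.7 and 429 TPM in cTAL at 30 min. Its 3 h levels were 18.6, 6.51, 15.8 and 13.3 TPM in CCD against 90.1, 144, 161 and 179 TPM in cTAL, and the segments did not overlap, with -4.18 (SE 0.18, adjusted p = 6.15e-06) and -3.61 (SE 0.20, adjusted p = 1.02e-04). Slc9a3, an apical sodium and proton exchanger, averaged 44.7 ± 16.63 TPM in cTAL and 0.177 ± 0.176 TPM in CCD at 30 min. Kcnj16, a basolateral potassium channel subunit, differed by -2.83 and -1.82, and the kinase Wnk1 by -2.65 and -3.06. Bsnd, which encodes the chloride channel subunit barttin, averaged 199.8 ± 40.0 and 196 ± 25.2 TPM at 30 min, where it was not called, and was called higher in CCD at 3 h (0.54).

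Claudins, which set what passes between cells, split by segment. Among 22 tested genes of tight junctions, 11 were higher in CCD and 6 in cTAL at 30 min, and 9 and 7 of 21 at 3 h, and the side with more calls at 30 min changed with the scaling (9 to 11 in CCD, 6 to 10 in cTAL). Cldn10, which forms sodium-selective pores, was at 14.9, 8.68, 6.55 and 2.24 TPM in CCD against 1168, 1074, 962 and 1152 TPM in cTAL at 30 min. Cldn16, which with Cldn19 passes calcium and magnesium, was at 30.7, 22.5, 14.04 and 21.3 TPM in CCD against 526, 401, 328 and 396 TPM in cTAL. Cldn19 was at 54.8, 86.5, 77.5 and 66.7 TPM in CCD against 234, 190.3, 236 and 272 TPM in cTAL. All 3 were higher in every cTAL library than in any CCD replicate. At 3 h the levels of Cldn10 were 168, 9.57, 174 and 5.64 TPM in CCD against 1682, 1735, 1713 and 1992 TPM in cTAL. Those of Cldn16 were 34.01, 14.9, 34.6 and 13.4 TPM in CCD against 233, 235, 269 and 263 TPM in cTAL, and those of Cldn19 were 81.6, 71.8, 102 and 81.3 TPM in CCD against 237, 202, 266 and 281 TPM in cTAL. The differences were -7.20 (SE 0.31, adjusted p = 6.06e-06) and -6.07 (SE 0.74, adjusted p = 0.00138) for Cldn10, -4.19 (SE 0.099, adjusted p = 4.95e-07) and -3.59 (SE 0.21, adjusted p = 1.08e-04) for Cldn16, and -1.705 (SE 0.16, adjusted p = 1.69e-04) and -1.56 (SE 0.099, adjusted p = 1.54e-04) for Cldn19. The gene Cldn14, whose protein blocks that cation path, was also higher in cTAL, by -3.14 and -3.57.

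In the other direction, Cldn8, a barrier claudin of the collecting duct, was at 1008, 1122, 1268 and 1090.5 TPM in CCD against 267, 163, 252 and 208 TPM in cTAL at 30 min, then at 1285, 1366, 1330.3 and 1204 TPM in CCD against 231, 259.9, 249.7 and 271 TPM in cTAL at 3 h, with no overlap and differences of 2.35 (SE 0.13, adjusted p = 1.82e-05) and 2.35 (SE 0.082, adjusted p = 3.50e-05). Its partner Cldn4 differed by 2.599 and 1.82, Cldn9 by 5.52 and 4.83, Cldn1 by 3.17 and 3.02, and Cldn3 by 0.98 and 0.84. Other genes of the tight junction list were also called on both sides. Ocln, occludin, was higher in cTAL, at 199.9 ± 54.7 against 39.3 ± 3.38 TPM at 30 min, as was Marveld2, tricellulin, with -1.89 and -1.78. The scaffold Tjp3 and the adhesion protein F11r were higher in CCD, with 2.97 and 2.52 at 30 min and 2.96 and 2.32 at 3 h.

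Of 21 tested keratins and adhesion molecules, 14 were higher in CCD and 3 in cTAL at 30 min, against 41.8% and 13.3% of all genes, and 11 and 3 of 19 at 3 h, against 27.9% and 10.4%. The medians were 1.31 and 0.96. The type I keratins Krt18 and Krt19 went opposite ways. Krt18 was at 371, 607, 859 and 605 TPM in CCD against 3.99, 6.31, 4.37 and 5 TPM in cTAL at 30 min. Krt19 was at 1.84, 2.31, 0.615 and 1.63 TPM in CCD against 53.6, 81.9, 6.64 and 83.8 TPM in cTAL. Neither overlapped, and the differences were 6.64 (SE 0.18, adjusted p = 1.02e-06) and 5.59 (SE 0.24, adjusted p = 4.84e-05) for Krt18 and -4.05 (SE 0.43, adjusted p = 2.60e-04) and -4.29 (SE 0.44, adjusted p = 7.92e-04) for Krt19. Krt8, the usual partner of Krt18, differed by 2.62 and 2.20. The epithelial adhesion molecule Epcam averaged 884 ± 168 and 100.5 ± 57.4 TPM at 30 min, and L1cam, a neural adhesion molecule also made in collecting duct, averaged 48.8 ± 10.2 and 5.14 ± 1.503 TPM. The cadherin Cdh3 was higher in cTAL, by -1.32 and -0.96.

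The sodium pump, which drives transport in both segments, and its FXYD regulators had members on each side. Of 8 tested pump and FXYD genes, 3 were higher in CCD and 4 in cTAL at each time. The beta subunits Atp1b1 and Atp1b3 were higher in CCD, by 1.022 and 1.28 at 30 min and 0.82 and 0.96 at 3 h. With median-of-ratios rescaling both lost the call at 3 h, and the list then had 1 higher in CCD and 5 in cTAL. The FXYD regulators separated the segments further. Fxyd4 averaged 844 ± 348 TPM in CCD versus 0.330 ± 0.262 TPM in cTAL at 30 min, whereas Fxyd6 averaged 4.63 ± 2.74 and 631 ± 138 TPM. Fxyd1 and Fxyd5 were also higher in cTAL, by -3.85 and -1.86 at 30 min and by -5.18 and -2.97 at 3 h. Fxyd2, the gamma subunit, was among the most abundant genes that were not called, with 5959.8 ± 1659.6 against 5926 ± 1945 TPM at 30 min, and 0.021 and -0.097.

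Potassium channel genes were divided, with 5 higher in CCD and 4 in cTAL of 9 tested at 30 min, and 4 and 3 of 8 at 3 h. Kcne1, a small subunit that slows the channel Kcnq1, was at 595, 508, 498 and 846 TPM in CCD against 0, 0, 0 and 0 TPM in cTAL at 30 min, so it was listed at 0 in every cTAL library. At 3 h it was at 323, 296, 475 and 556 TPM in CCD against 0, 0, 0.820 and 0 TPM in cTAL, without overlap (8.40 (SE 0.22, adjusted p = 1.97e-05)). Kcnq1 itself differed by 2.64 and 2.16, and the leak channel Kcnk1 by 1.43 and 1.66. Kcnt1, a sodium-activated potassium channel, averaged 16.4 ± 6.85 TPM in cTAL and 0.0675 ± 0.0727 TPM in CCD at 30 min. Of anion channels and exchangers, 8 were higher in CCD and 3 in cTAL of 18 at 30 min, near the 41.8% and 13.3% of all genes, and 7 and 7 after quantile normalization. At 3 h the counts were 6 and 1 of 15. Beyond those named, the vesicular exchanger Clcn3 differed by 2.02 and 1.93, and Slc4a11 by 1.91 and 2.15.

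Of 17 calcium and magnesium genes, 8 were higher in CCD and 8 in cTAL at 30 min, against 41.8% and 13.3% of all genes, and 4 and 7 of 14 at 3 h, against 27.9% and 10.4%. After quantile normalization the counts were 4 and 9, and 1 and 8. Calb1, a calcium buffer of the connecting tubule and distal convoluted tubule, was at 3822, 123, 523 and 313 TPM in CCD against 2.26, 17.3, 42.4 and 0.830 TPM in cTAL at 30 min. Replicate 1 of CCD was the highest by far. The high connecting tubule sums of that replicate are only in part separate evidence, because Calb1 itself made up 3749 and 3896 TPM of them. Klk1, another marker in these sums, was at 407 and 2359 TPM in the CCD libraries of that replicate. In the other CCD libraries at 30 min Klk1 was at 75.8 to 293 TPM. The difference of Calb1 was 5.86 (SE 1.18, adjusted p = 0.0049). In numbers 1 to 4 it was 10.20, 2.696, 3.11 and 7.42, so it was present in each number. At 3 h Calb1 was at 448, 328, 388 and 862 TPM in CCD against 7.86, 132, 103 and 8.88 TPM in cTAL, with 3.57 (SE 0.95, adjusted p = 0.0257), a call that was lost without replicate 1 or replicate 4. Pth1r, the parathyroid hormone receptor, was higher in cTAL, by -2.45 and -2.89, and so was the calcium pump Atp2b4, by -2.44 and -1.62.

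Receptors for hormones were called on both sides. Of 22 tested, 10 were higher in CCD and 10 in cTAL at 30 min, against 41.8% and 13.3% of all genes, and 8 and 7 of 19 at 3 h, against 27.9% and 10.4%. In CCD the vasopressin V1a receptor Avpr1a averaged 69.5 ± 7.47 TPM against 0.357 ± 0.171 TPM in cTAL at 30 min. Oxgr1, a receptor for 2-oxoglutarate, averaged 97.9 ± 22.5 against 2.15 ± 1.0198 TPM, and the adhesion receptor Gpr116 averaged 121 ± 22.3 against 2.76 ± 0.891 TPM. The prostaglandin receptor Ptger1 and the nucleotide receptor P2ry2 differed by 4.11 and 2.71 at 30 min, and both were called at both times. In cTAL the angiotensin receptor Agtr1a averaged 61.5 ± 10.2 TPM against 3.56 ± 4.12 TPM in CCD, and the glucagon receptor Gcgr 164 ± 33.4 against 45.3 ± 3.34 TPM. The direction of the larger count at 3 h changed with the scaling.

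Ptger3, a prostaglandin receptor that lowers cAMP, rested on which CCD library was taken. Its levels were 9.59, 12.4, 16.5 and 18.4 TPM in CCD against 10.2, 9.63, 22.4 and 28.3 TPM in cTAL at 30 min and 28.4, 6.96, 29.96 and 6.67 TPM in CCD against 43.4, 47.8, 32.0 and 9.94 TPM in cTAL at 3 h. The segments overlapped at both times. With both CCD libraries averaged the difference was -0.55 (SE 0.17, adjusted p = 0.0288) and -1.51 (SE 0.31, adjusted p = 0.011). At 30 min the first CCD libraries of numbers 1 to 4 held 16.2, 21.2, 27.8 and 29.2 TPM and the second held 2.99, 3.56, 5.13 and 7.58 TPM. The difference from cTAL with the first library alone was 0.50 at 30 min, the opposite sign, and -0.25 at 3 h (adjusted p = 0.709). Without pairing by number the 30 min call was also lost (adjusted p = 0.237). Genes of prostaglandin synthesis were clearer. Ptges, the inducible prostaglandin E synthase, averaged 634 ± 88.1 TPM in CCD versus 3.21 ± 3.54 TPM in cTAL at 30 min, and Ptgs1, a cyclooxygenase, averaged 83.6 ± 13.7 and 1.31 ± 0.591 TPM. The other cyclooxygenase, Ptgs2, was higher in cTAL, at 47.3 ± 57.9 against 0.0762 ± 0.0459 TPM, as was the degrading enzyme Hpgd, at 57.2 ± 24.2 against 7.83 ± 4.62 TPM. The list, Ptger3 included, had 7 higher in CCD and 3 in cTAL of 14 at 30 min, against 41.8% and 13.3% of all genes, and 6 and 3 of 13 at 3 h. After quantile normalization the 30 min counts were 7 and 6.

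Within the cAMP pathway 9 of 20 tested genes were higher in CCD and 5 in cTAL at 30 min, with a CCD share near the 41.8% of all genes, and 5 and 2 of 15 at 3 h. After quantile normalization they were 8 and 7, and 3 and 3. Gnai2, an inhibitory G protein subunit, differed by 2.29 and 1.74, and Prkar1a, a regulatory subunit of protein kinase A, by 0.94 and 1.08. Prkar1b, another regulatory subunit, was higher in cTAL, by -2.08 and -1.97, as was the kinase anchor Akap1, by -1.39 and -1.11. The cAMP-responsive factor Crem differed by 1.64 and 0.86. Adcy6, a cyclase of the collecting duct, was not called at either time, with 0.36 and 0.32. Among steroid and nuclear receptor genes 10 were higher in CCD and 7 in cTAL of 23, and 6 and 2 of 19 at 3 h, where the larger count changed side with scaling. The bile acid receptor Nr1h4 and the orphan receptor Nr2f2 were higher in cTAL, by -4.497 and -4.54 at 30 min and -4.09 and -3.72 at 3 h. The thyroid hormone receptor Thra was higher in CCD, by 1.47 and 0.93.

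Of 32 tested transcription factors of the distal nephron, 19 were higher in CCD and 6 in cTAL at 30 min, against 41.8% and 13.3% of all genes, and 12 and 3 of 27 at 3 h, against 27.9% and 10.4%. The medians were 0.81 and 0.61. Gata3, a zinc finger factor of the collecting duct, was at 76.9, 128, 145 and 117 TPM in CCD against 0.0600, 0.370, 0.780 and 0.0200 TPM in cTAL at 30 min, then at 61.0, 76.0, 62.9 and 76.2 TPM in CCD against 2.96, 1.36, 0.240 and 0.0900 TPM in cTAL at 3 h. Tfcp2l1, a factor needed for the collecting duct cell pattern, was at 23.4, 16.8, 26.8 and 27.4 TPM in CCD against 7.98, 7.03, 10.4 and 7.97 TPM in cTAL at 30 min, then at 5.49, 5.67, 4.95 and 4.72 TPM in CCD against 1.35, 0.720, 1.08 and 1.99 TPM in cTAL at 3 h. Neither overlapped, though Tfcp2l1 was the nearer to equal, with 1.33 (SE 0.14, adjusted p = 2.81e-04) and 1.46 (SE 0.24, adjusted p = 0.00444) against 6.49 (SE 0.16, adjusted p = 5.32e-07) and 5.21 (SE 0.36, adjusted p = 1.93e-04). Hmx2, Gata2, Dmrt2, Ehf and Lhx1 were also called at both times and differed by 8.01, 5.34, 5.31, 4.64 and 4.03 at 30 min. Pax8, a nephron factor, differed by 1.56 and 1.55. On the cTAL side Tfap2b differed by -2.11 and -2.43 and Mecom by -1.34 and -0.73.

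Esrrb, an oestrogen-related receptor of the thick limb, was at 0, 0, 0.0350 and 0.0300 TPM in CCD against 2.27, 1.39, 3.38 and 2.25 TPM in cTAL at 30 min. It passed the filter at that time alone and was called (-1.68 (SE 0.17, adjusted p = 2.20e-04)). Irx1, another thick limb factor, was under the filter at both times, with means of 0.242 ± 0.116 and 0.657 ± 0.336 TPM at 30 min. Since SMARTer and Nextera libraries are not described as keeping strand, a gene that overlaps another cannot be told apart from it here.

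HOX genes, which carry positional identity, were called in both directions, 8 in CCD and 5 in cTAL of 14 at 30 min and 5 and 4 of 12 at 3 h. Hoxd10 was at 14.7, 2.16, 7.09 and 3.15 TPM in CCD against 42.6, 51.6, 59.5 and 61.3 TPM in cTAL at 30 min. At 3 h it was at 12.8, 5.15, 10.2 and 5.75 TPM in CCD against 47.5, 47.3, 55.2 and 45.6 TPM in cTAL, and the segments did not overlap at either time (-3.12 (SE 0.40, adjusted p = 6.72e-04) and -2.64 (SE 0.21, adjusted p = 2.82e-04)). Hoxc10 was higher in cTAL as well, by -3.09 and -3.12. In contrast Hoxb6, Hoxd3, Hoxb2, Hoxd9 and Hoxb7 were higher in CCD, by 3.02, 2.81, 2.35, 1.54 and 1.37 at 30 min, and each was called again at 3 h. Both directions therefore occurred within the HOXD cluster, between Hoxd10 on one side and its neighbour Hoxd9 and Hoxd3 on the other.

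Signalling genes of the Notch, Wnt and BMP pathways were more often higher in CCD, 12 against 2 of 18 at 30 min and 10 against 2 of 15 at 3 h, with medians of 1.43 and 1.54. Grem1, a secreted inhibitor of BMP, averaged 249.5 ± 63.1 and 0.0450 ± 0.0238 TPM at 30 min, and the ligand Bmp4 was higher in cTAL, at 33.6 ± 7.25 against 4.56 ± 1.98 TPM. The BMP receptor Bmpr1b averaged 27.6 ± 2.79 and 0.147 ± 0.140 TPM at 30 min and was listed at 0 in all 4 cTAL libraries at 3 h. Id1 and Id3, which are BMP targets, differed by 3.65 and 2.83 at 30 min and 2.96 and 2.10 at 3 h. The Notch ligands Dll1 and Dll4 differed by 2.85 and 1.76 at 30 min, and the Wnt receptors Fzd1 and Fzd4 by 3.81 and 1.82. All 4 were called again at 3 h.

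Growth factor genes of the EGF and FGF families, with related factors, had 7 higher in CCD and 8 in cTAL of 19, and 4 and 7 of 16 at 3 h. The ligands Egf and Btc split, Btc being higher in CCD at 65.5 ± 16.9 against 2.19 ± 1.06 TPM at 30 min. Their receptor Egfr was higher in CCD, by 2.04 and 1.35. Among FGF receptors Fgfr2 was higher in CCD, by 2.39 and 1.77, and Fgfr1 and Fgfr4 in cTAL, by -1.05 and -1.99 at 30 min and -0.76 and -2.02 at 3 h. The ligands Fgf1 and Fgf9 were higher in cTAL, by -2.20 and -0.94 at 30 min and -1.601 and -1.75 at 3 h. Gdf15, a stress-induced secreted factor, averaged 317 ± 337 TPM in CCD versus 0.0900 ± 0.180 TPM in cTAL at 30 min, and 6.35 ± 3.91 and 0.0375 ± 0.0750 TPM at 3 h.

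Energy metabolism leaned to cTAL. Of 13 mitochondrially encoded genes, 12 were higher in cTAL and 0 in CCD at 30 min, and 13 and 0 at 3 h, but after quantile normalization 3 were higher in cTAL and 2 in CCD at 30 min, and 10 and 1 at 3 h. Of 47 nuclear genes of oxidative phosphorylation, 29 were higher in cTAL and 3 in CCD at 30 min, and 32 and 0 at 3 h, with medians of -0.28 and -0.37 against 0.29 and 0.30 over all genes. Ndufb9, of complex I, averaged 1142 ± 70.2 and 2316 ± 191 TPM at 30 min, and Cox5b, of complex IV, differed by -0.65 and -0.73. In the tricarboxylic acid cycle list 18 of 32 genes were higher in cTAL and 3 in CCD at 30 min, and 13 and 2 at 3 h. Idh2, mitochondrial isocitrate dehydrogenase, differed by -1.024 and -1.07, and the ketone body enzymes Oxct1 and Bdh1 by -1.24 and -1.023 at 30 min.

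Fatty acid oxidation genes followed, with 15 higher in cTAL and 3 in CCD of 25 at 30 min, and 11 and 2 at 3 h. Cpt1b and Cpt1a, forms of the enzyme that admits fatty acids to mitochondria, averaged 60.3 ± 24.4 and 124 ± 25.3 TPM in cTAL against 2.91 ± 1.47 and 50.5 ± 9.65 TPM in CCD at 30 min. Hadh, a dehydrogenase of the same path, differed by -1.49 and -1.64. Acsl3, an acyl-CoA synthetase, was higher in CCD, by 2.10 and 1.34.

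Glycolysis genes were called in equal number at 30 min, 9 and 9 of 26, and 7 in CCD and 5 in cTAL of 25 at 3 h, where the larger side changed with scaling. The forms of lactate dehydrogenase went opposite ways. Ldha, the muscle form, which favours lactate production, was at 3229, 3487, 2475 and 3323 TPM in CCD against 545, 456, 403 and 519.8 TPM in cTAL at 30 min. Ldhb, the heart form, was at 1464, 1356, 937 and 1459 TPM in CCD against 4414, 4431, 4148 and 4618 TPM in cTAL. At 3 h Ldha was at 3266, 3325, 3028 and 2537 TPM in CCD against 493, 496, 549 and 425 TPM in cTAL and Ldhb at 3032, 2375, 3025 and 2149 TPM in CCD against 8898, 9438, 8138 and 9189 TPM in cTAL. Neither overlapped at either time, and the differences were 2.69 (SE 0.082, adjusted p = 1.48e-06) and 2.62 (SE 0.076, adjusted p = 1.97e-05) for Ldha and -1.78 (SE 0.10, adjusted p = 1.86e-05) and -1.79 (SE 0.12, adjusted p = 1.69e-04) for Ldhb. The carriers of lactate split too. Slc16a3, an exporter, was higher in CCD, by 3.83 and 4.55, and Slc16a1 and Slc16a7 were higher in cTAL, by -3.16 and -1.53 at 30 min and -1.39 and -1.21 at 3 h. Of the glucose carriers, the insulin-responsive Slc2a4 averaged 64.1 ± 8.05 TPM in cTAL and 0.828 ± 0.252 TPM in CCD at 30 min, and Slc2a1 was called higher in CCD, by 0.36 and 1.24. Its 30 min difference is close to the median of all genes and was called in 5 of 15 alternatives. The glycolytic enzymes Pkm and Aldoa were higher in CCD at both times, by 0.77 and 0.61 at 30 min.

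Immediate early genes, whose transcripts respond within minutes to many stimuli, were higher in CCD. Of 17 tested, 13 were higher in CCD and 0 in cTAL at 30 min, and 11 and 1 of 16 at 3 h, with medians of 2.44 and 1.55. Fos was at 223, 1183, 1337 and 1124 TPM in CCD against 52.5, 19.7, 54.6 and 87.4 TPM in cTAL at 30 min, then at 175, 316, 167 and 757 TPM in CCD against 2.10, 26.1, 2.30 and 3.66 TPM in cTAL at 3 h. Junb, its dimer partner, was at 131, 434, 906 and 751 TPM in CCD against 12.4, 10.9, 26.8 and 41.5 TPM in cTAL at 30 min. Both genes were higher in every CCD replicate than in any cTAL library at 30 min, with 4.03 (SE 0.53, adjusted p = 6.99e-04) and 5.55 (SE 0.53, adjusted p = 5.88e-04) for Fos and 4.37 (SE 0.30, adjusted p = 4.25e-05) and 4.78 (SE 0.37, adjusted p = 2.82e-04) for Junb. Egr1, Atf3, Jun and Ier2 differed by 3.37, 3.34, 2.998 and 3.63 at 30 min, and all were called at 3 h. Nr4a1, another such gene, was not called at 30 min (-0.51) and was higher in cTAL at 3 h (-1.33). Some of these levels moved with the CCD library. The first library was above the second in all 4 numbers at both times for Jun (by 1.44 and 1.42), Egr1 (1.14 and 1.37) and Junb (0.65 and 0.69). Fos, Atf3, Ier2 and Nr4a1 were not called between the CCD libraries at either time.

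Chaperones had 9 higher in CCD and 3 in cTAL of 18 at 30 min, near the 41.8% and 13.3% of all genes, and 9 and 1 at 3 h, against 27.9% and 10.4%. Hspb1, a small heat shock protein, differed by 3.38 and 2.11, whereas its relative Hspb8 was higher in cTAL, by -1.65 and -1.41. Of genes of the NRF2 response and metallothioneins, 7 and 2 of 15 were called at 30 min and 5 and 2 at 3 h, and the larger side at 3 h changed with scaling. Mt3, a metallothionein, averaged 189 ± 45.6 and 1.603 ± 0.507 TPM at 30 min, and the abundant Mt1a was not called at either time (-0.25 and -0.13). Of 28 cytosolic ribosomal protein genes, 12 were higher in CCD and 0 in cTAL at 30 min, but 1 and 3 at 3 h. Under the other scalings the 30 min counts were 2 to 4 in CCD and 8 to 10 in cTAL. No direction can be read for that list.

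**Figure D3:**
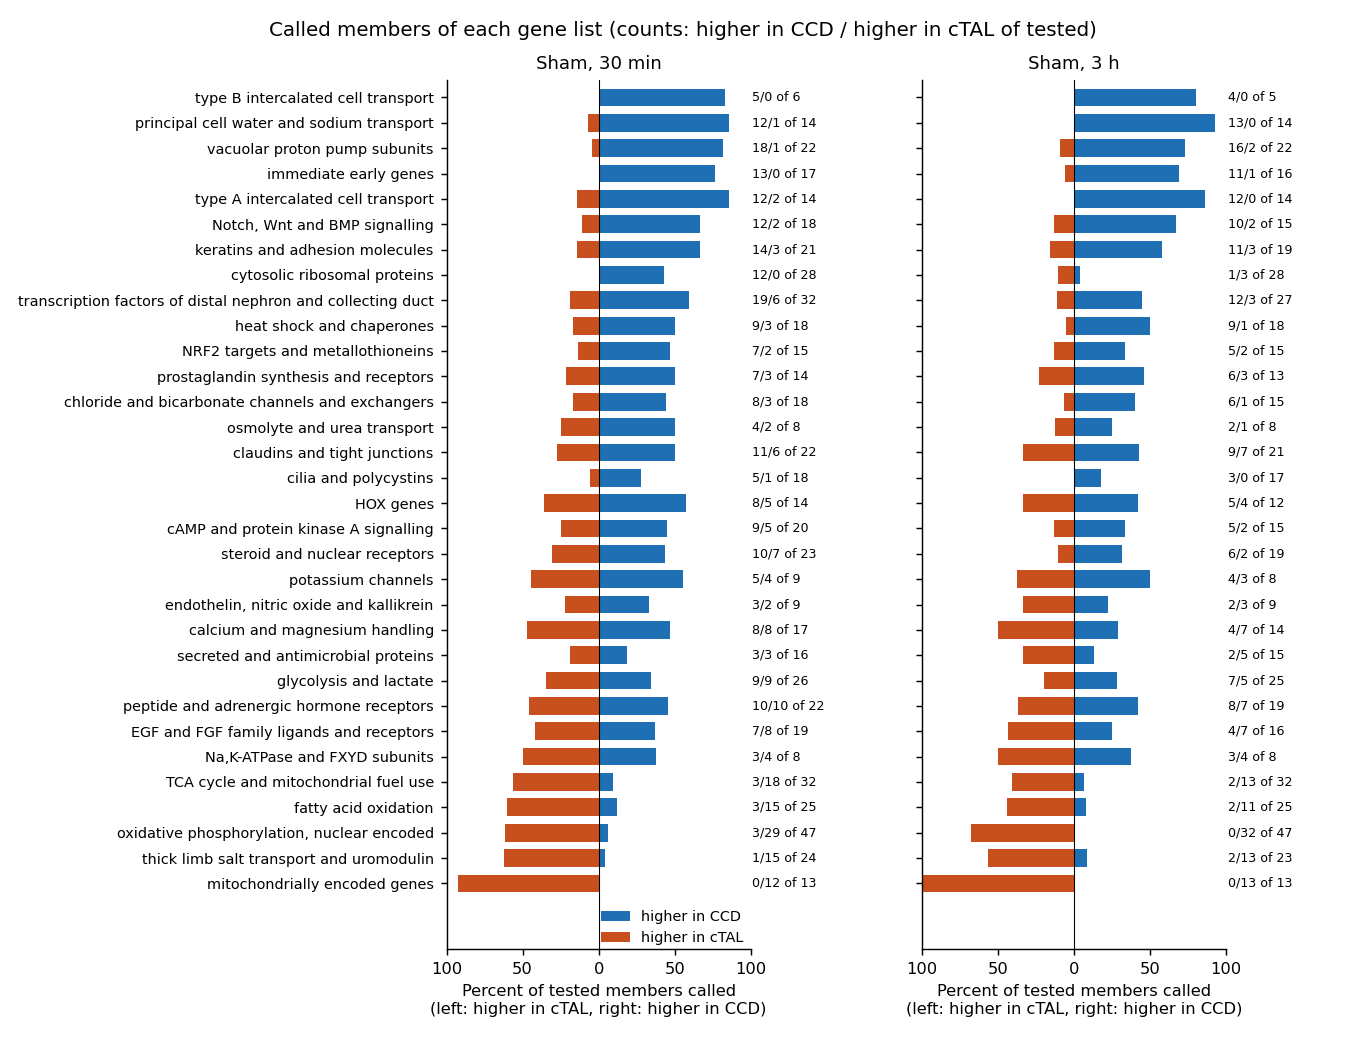
Percent of tested members called higher in CCD (blue, to the right) or higher in cTAL (orange, to the left) for the 32 gene lists, at 30 min and 3 h, with the counts beside each bar. Intercalated and principal cell transport, the proton pump and immediate early genes extend to the right at both times, and mitochondrially encoded genes, thick limb transport and fuel oxidation extend to the left.

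Pairs of related genes were looked at together, though members of a pair need not share a function. Of 42 pairs, 7 had members called in opposite directions at each time, and 5 did so at both, among them Cldn8 and Cldn16, Ldha and Ldhb, Krt18 and Krt19, and Slc2a1 and Slc2a4. The last of these rests on the 30 min call of Slc2a1, which was lost under each of the other scalings. Members were called in the same direction in 15 pairs at 30 min and 8 at 3 h. In 9 and 11 pairs at least 1 member was not called, and in 11 and 16 pairs a member was under the filter. Rhcg and Rhbg, Gata3 and Gata2, and Avpr1a and Avpr2 were among the pairs higher in CCD together at both times, and Cpt1a and Cpt1b were higher in cTAL together.

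**Figure D4:**
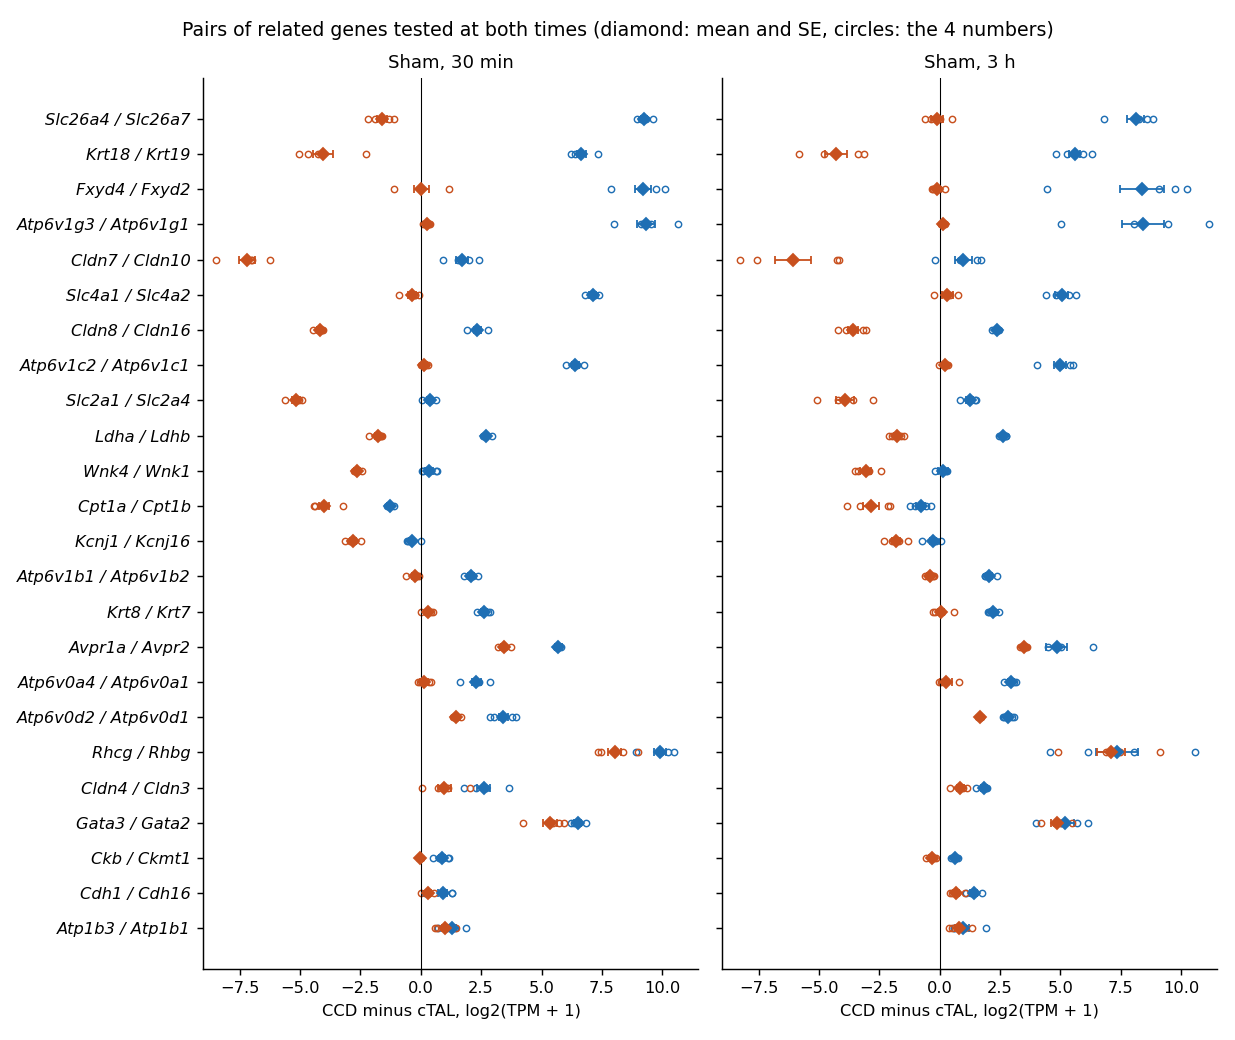
CCD minus cTAL difference on the log2(TPM + 1) scale for 24 pairs of related genes tested at both times, at 30 min and 3 h; diamonds are means with SE bars, circles are the 4 numbered differences, and blue marks the member with the larger difference at 30 min. In the pairs of Ldha with Ldhb and Krt18 with Krt19 the members lie on opposite sides of 0 at both times.

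A change of the difference between 30 min and 3 h passed the test for 2 of 10178 genes (0.0197%), Arrdc3 and AC134224.3. Arrdc3, an arrestin-domain adaptor in the trafficking of membrane proteins, was at 33.5, 34.2, 39.4 and 60.9 TPM in CCD against 167, 126, 121 and 178 TPM in cTAL at 30 min, with no overlap. At 3 h it was at 25.9, 22.2, 28.7 and 17.7 TPM in CCD against 20.04, 13.2, 22.8 and 12.9 TPM in cTAL, where the segments overlapped. The difference moved from -1.85 (SE 0.14, adjusted p = 7.15e-05) to 0.44 (SE 0.15, adjusted p = 0.062), a move of 2.30 (SE 0.20, adjusted p = 0.00590). AC134224.3, listed under a clone name, moved from 0.84 to -0.004, a move of -0.84 (adjusted p = 0.0394). The number of such genes ranged from 0 without replicate 2 or 3 to 4 without replicate 1 or 4, and was 16 without pairing by number, 17 with the first CCD library alone, 23 with no filter and 136 with a pseudocount of 5. Changes that did not pass were as large as 3.81 for Slc12a1 (adjusted p = 0.166), 3.33 for Egf (adjusted p = 0.191) and 3.10 for Umod (adjusted p = 0.341), so a low count does not show that the difference was stable over time. The tables were made separately, so a move between times also holds any difference between the tables.

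Of the 5 genes called in opposite directions at the 2 times, 2 are copies of the U1 small nuclear RNA, whose reads cannot be assigned to one of many near-identical loci. The others were Opn3, an opsin, with 0.79 at 30 min and -0.89 at 3 h, Hk1, the first enzyme of glycolysis, with -0.81 and 0.44, and the RNA-binding protein Hnrnpa2b1, with -0.56 and 0.48. The change between times passed the adjusted test for none of these 3, with adjusted p of 0.123, 0.0809 and 0.135.

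The 2 CCD libraries of a number were not interchangeable. The first was called higher than the second for 935 of 11549 genes (8.1%) at 30 min and 257 of 10367 (2.48%) at 3 h, and lower for 83 (0.719%) and 2 (0.0193%). Of 10153 genes tested at both times, 949 were higher in the first library in 8 of 8 pairs and 66 were lower in 8 of 8, and 229 were called the same way at both times. These comparisons were added after the data were seen. Scand1, a SCAN-domain protein, was higher in the first library by 3.23 at 30 min and 1.86 at 3 h, Gdf15 by 3.06 and 1.69, Ptger3 by 2.11 and 2.52, and the transcription factor Cebpd by 2.47 and 2.03. Slc26a4 was higher in the first library by 0.99 and 1.16, and Hsd11b2 by 1.73 and 0.69. For Aqp2 the values were 0.12 and -0.12, neither called. The labels number these libraries 01 and 02 and do not say how they differ, so what the number stands for was not tested.

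**Figure D5:**
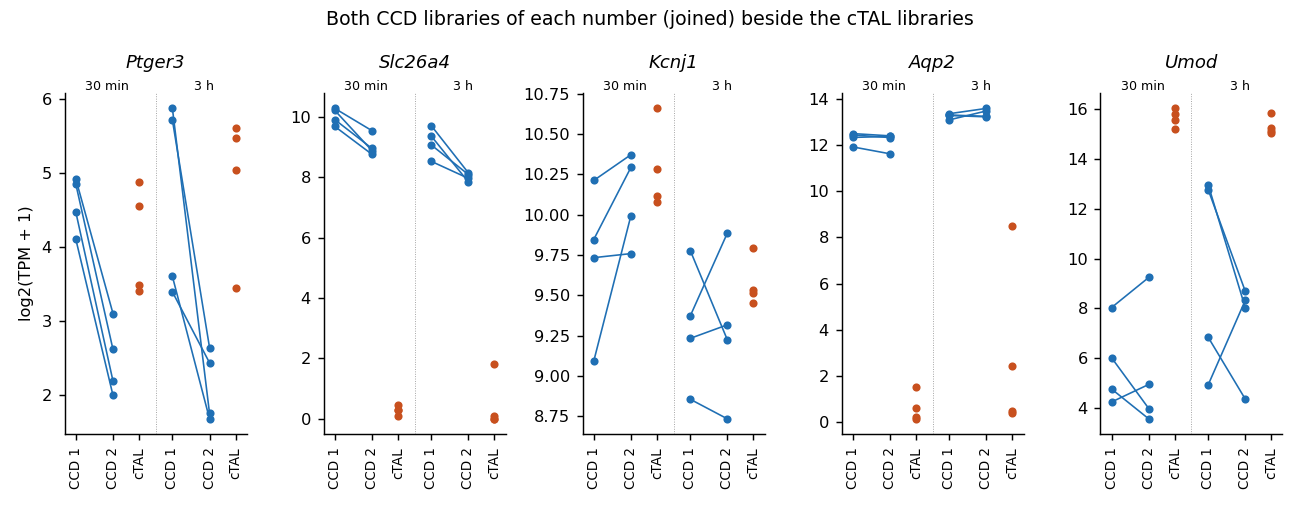
Levels of 5 genes on a log2(TPM + 1) axis in both CCD libraries of each number (joined by lines) and in the cTAL libraries, at 30 min and 3 h. Ptger3 falls from the first to the second CCD library in every number, and every second library lies below the cTAL libraries of its time. Slc26a4 falls but stays far above cTAL, and Aqp2 hardly moves.

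The choice of library touched many calls. Of the 4835 genes higher in CCD at 30 min, 4205 kept the call with the first library alone, 4315 with the second and 3749 with each. A gene that fell under the filter with a library, and so was not tested, counts as kept here. Of 1543 higher in cTAL the counts were 1412, 1299 and 1192. At 3 h 1853 of 2914 CCD calls and 763 of 1088 cTAL calls were kept with each library. Of all 6378 calls at 30 min, 6341 were tested with the first library alone and 6238 with the second. Of 4002 calls at 3 h, 3964 and 3908 were tested. Under all alternatives in which the gene was tested, 2656 of 4835 and 1041 of 1543 calls at 30 min held, and 1164 of 2914 and 638 of 1088 at 3 h. Not every gene was tested in every alternative. With the filter of 5 TPM, 4614 of the 6378 calls at 30 min and 3077 of the 4002 at 3 h were tested. Of the 3383 genes called the same way between segments at both times, 559 were also called between the 2 CCD libraries at either time. Over all genes tested, 8.1% were called higher and 0.719% lower in the first library at 30 min, and 2.48% and 0.0193% at 3 h. The share of all genes called at either time was not taken, so no excess can be read from the 559.

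Markers of other cells were looked for in both segments. The 9 macrophage and myeloid markers were all tested at 30 min and 9 were higher in cTAL, and 8 of 8 tested were at 3 h. Their summed level was 1283 to 3148 TPM in cTAL and 213 to 553 TPM in CCD at 30 min, and 2381 to 3684 and 120.5 to 1184 TPM at 3 h. None of the 9 was at 0 in all libraries of a segment. Of 8 endothelial markers, 5 of 6 tested were higher in cTAL at 30 min and 3 of 4 at 3 h, with sums of 56.9 to 123 TPM in cTAL and 11.4 to 61.2 TPM in CCD at 30 min, and 56.1 to 322 and 21.5 to 204 TPM at 3 h. The part of these cells in the genes higher in cTAL was not tested.

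Connecting tubule markers were higher in CCD for 4 of 4 tested at 30 min and 1 of 3 at 3 h, but for 1 or 2 of the 4 under the other scalings at 30 min, with sums of 183 to 6296 TPM in CCD and 22.6 to 283 TPM in cTAL at 30 min. Of 6 distal convoluted tubule markers 2 were tested and 1, Calb1, was higher in CCD at both times, and Pvalb was at 0 in every library. Proximal tubule markers summed to 56.2 to 874 TPM in CCD and 554 to 1837 TPM in cTAL at 30 min, with 1 of 9 tested called in each direction. Red blood cell markers summed to 9.09 to 1119 TPM in CCD and 10.4 to 867 TPM in cTAL at 30 min, and 0 of 2 tested were called at either time. In the same order, podocyte sums stayed at 0.950 to 2.71 and 3.18 to 5.22 TPM, smooth muscle sums at 0.860 to 4.40 and 3.53 to 21.7 TPM and lymphocyte sums at 1.17 to 5.64 and 8.19 to 22.1 TPM at 30 min. Of 3 macula densa markers tested at 30 min, Ptgs2 and Pappa2 were higher in cTAL and Avpr1a in CCD. At 3 h, of 2 tested, Ptgs2 was higher in cTAL and Avpr1a in CCD, with Nos1 at 0 in all cTAL libraries at 3 h. Of the proliferation markers, 0 of 6 tested at 30 min and 0 of 5 at 3 h were called.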

How the data were processed

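RNA of microdissected sham tubules was measured in 24 libraries. The deposited values are TPM per gene in a separate table for each time, made by the authors with STAR 2.7.3 and RSEM 1.3.3 on the rat build Rnor_6.0, per the submitters' processing notes. TPM keep no depth, so no interval or floor that needs counts is given, and their number of replicates limits the precision. Groups and numbers come from the sample titles, and each column was matched to its title. Genes were matched between tables by identifier, since 5174 of 32883 carry different names.

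Levels were tested as log2(TPM + 1), a pseudocount of 1, after a filter of 1 TPM in at least 4 of 8 replicates. The CCD minus cTAL difference within each number was tested against 0 with limma 3.58.1 (moderated, with a mean-variance trend) in R 4.3.3, two-sided, and p-values were adjusted by Benjamini-Hochberg over all genes tested. The change of the difference between times was tested the same way. Tables and figures were made with Python 3.11.15 (pandas 2.3.3, numpy 2.4.6, matplotlib 3.10.9).

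The numbers are shared by both segments in the titles. Deviations from the segment means of samples with the same number correlated at 0.302, 0.273, 0.396 and 0.372 at 30 min, and at 0.154, 0.214, 0.176 and 0.0637 at 3 h. In 7 of 8 cases a sample correlated best with its own number. The pairing itself was set by the comparison's definition, and the fit without it is among the alternatives.

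The gene lists (32 of pathways, 20 of cell markers), the members and the tests were chosen with earlier results of these data known. Named genes were the 20 with the largest mean difference in each direction among those called at both times, at 5 TPM or more on average and without overlap, up to 6 members of each list, a fixed set of 25 genes, 42 pairs of related genes, and genes that were called in opposite directions, differed between times or were abundant and not called. Some genes under this rule, and 1 of the motifs searched, are not reported here. Genes of the comparison of both CCD libraries were chosen after their values were seen. Other settings, 15 in number, changed the scaling, pseudocount, filter, trend, pairing, CCD library or replicates, and 2 more were chosen after the data were seen. The procedure was tested on simulated data with 50 changed genes per size. Of log2 changes of 0.5, 1, 2 and 4 it recovered 8%, 62%, 88% and 94% at 30 min (11569 genes), and 8%, 32%, 70% and 100% at 3 h (10435 genes). False calls numbered 5 at 30 min and 9 at 3 h. Far fewer genes were changed there than were called in the data, so these rates need not hold for the comparison itself.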

Additional observations from a re-analysis of the deposited data

Results flagged for a closer look

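Single replicates that lay far from the other 3 of their group were looked for in 106 groups of 4, and 6 were found, where chance gives about 1 in 20. In CCD at 30 min replicate 1 had the lowest Aqp2, 3494.5 TPM, and the highest share of TPM in thick limb markers, 0.0609%. In cTAL at 3 h replicate 1 had the highest Aqp3 (92.9 TPM), Slc26a4 (2.53 TPM) and Slc4a1 (0.670 TPM), and its Aqp2 was 361 TPM. In CCD at 3 h replicate 2 had an Atp6v1b1 of 533 TPM, above the other 3. Aqp2, Aqp3, Slc26a4, Slc4a1 and Atp6v1b1 were each called in the same direction with all replicates and when any replicate was left out.

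The segments differed by unlike amounts at the 2 times for a pair of genes. The CCD minus cTAL difference of Arrdc3 was higher at 3 h than at 30 min by 2.30 (limma, adjusted p = 0.00590), and that of AC134224.3 changed by -0.84 (adjusted p = 0.0394).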

How the results depend on the processing

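Scaling moved the counts over all genes most. Of genes higher and lower in CCD, median-of-ratios rescaling gave 3056 and 2761 at 30 min and 1651 and 1672 at 3 h, and quantile normalization gave 2852 and 3155, and 1533 and 1715. Rescaling without mitochondrial genes and Umod gave 3426 higher and 2395 lower genes at 30 min, and 2151 and 1300 at 3 h, so more genes stayed higher in CCD. Leaving out 1 replicate gave 3839 to 4762 higher and 1301 to 1383 lower genes at 30 min, 1874 to 2614 higher (1921 without replicate 2, 1874 without replicate 3) and 763 to 959 lower genes at 3 h, and 2313 to 2817 called the same way at both times. Without the Umod-rich CCD libraries and the Aqp2-rich number, an alternative added after the data were seen, 1720 genes were higher in CCD at 3 h. Without the replicate block the counts were 4394 and 1339 at 30 min, and 2864 and 1055 at 3 h.

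Genes whose difference changed between times numbered 2, and 16 without the replicate block, 1 with median-of-ratios rescaling, 10 with quantile normalization, 14 without mitochondrial genes and Umod, 136 with pseudocount 5, 23 with no filter, 1 with no trend, 17 with CCD library 1 alone, 1 in the added alternative, and 0 to 4 without 1 replicate. Without pairing, the differences of -8.33 and -4.83 in mitochondrial percent, -6.15 and -4.31 in thick limb marker percent and 494.6 in genes at 1 TPM at 30 min reached the smallest exact permutation p, 0.0286. Genes at 1 TPM at 3 h differed by 367.2, by 555.2 with CCD library 1 alone and by 179.2 with library 2 alone.

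Of 747 alternative values of the fixed genes, 731 kept direction and call, 14 lost the call and 1 gained it, all 15 in Kcnj1 or Ptger3. Ptger3 at 30 min turned to 0.50 with CCD library 1 alone. The cause was not tested. TPM keep no depth, so differences of genes near 1 TPM have an unknown counting error.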

Other observations

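Secreted and antimicrobial genes outside the leading ones were on both sides, with 3 higher in CCD and 3 in cTAL of 16 tested at 30 min, and 2 and 5 of 15 at 3 h. Defb1, a beta-defensin, averaged 6014 ± 1565 TPM in CCD versus 340.1 ± 215 TPM in cTAL at 30 min, with differences of 4.305 and 3.446. Pigr, the receptor that carries immunoglobulin A across epithelia, was higher in cTAL, by -4.81 and -1.82. The mucin Muc1, the phosphoprotein Spp1 and Wfdc2 were abundant in both segments and not called, with 0.26, 0.17 and 0.091 at 30 min. The endothelin and kinin genes had 3 and 2 of 9 called in CCD and cTAL at 30 min, and 2 and 3 at 3 h, and the larger side at 30 min changed with scaling. Edn3, an endothelin, and the receptor Ednrb were higher in CCD, by 3.77 and 2.28 at 30 min, and the kininogen Kng1 and the bradykinin receptor Bdkrb2 were higher in cTAL, by -2.97 and -1.28, all 4 again at 3 h.

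Osmolyte and urea genes had 4 and 2 of 8 called at 30 min, where the larger side changed with scaling, and 2 and 1 at 3 h. Slc16a12, a creatine carrier, averaged 89.0 ± 21.0 TPM in cTAL and 3.47 ± 0.790 TPM in CCD at 30 min, and the taurine carrier Slc6a6 was higher in CCD, by 2.20 and 1.6995. Of cilium genes 5 and 1 of 18 were called at 30 min, and 3 and 0 of 17 at 3 h, where the larger side changed with scaling. Of 5 thin limb markers tested at 30 min 2 were higher in CCD and 1 in cTAL, and of 4 at 3 h the counts were 2 and 1. Among them Cryab, a small heat shock protein of the medulla, averaged 347 ± 60.4 TPM in CCD versus 18.7 ± 19.1 TPM in cTAL at 30 min, and differed by 4.76 and 4.89. Upk1a, a urothelial gene, was higher in cTAL at low levels, by -1.63 and -1.95, and Upk3a was at 0 in every library. Of fibroblast markers Dcn was not called at either time (-0.095 and -0.45), and Col3a1 was higher in cTAL at 3 h (-1.65).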
